A study of Mus musculus with 2 samples.

Results

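Accessible chromatin was mapped by ATAC-seq, in which the Tn5 transposase cuts open DNA and attaches sequencing adapters to it, in LβT2 cells, and the Hox cluster genes were examined here. The Hox genes were taken as the protein-coding genes of GENCODE vM21 (GRCm38) named Hoxa, Hoxb, Hoxc or Hoxd followed by a number. The rule found 39 of 21938 protein-coding genes on the assembled chromosomes: 11 in the Hoxa cluster on chromosome 6, 10 in Hoxb on chromosome 11, 9 in Hoxc on chromosome 15 and 9 in Hoxd on chromosome 2. LβT2 is a mouse line of immortalized gonadotropes, the anterior pituitary cells that make luteinizing and follicle-stimulating hormone. The single group held 2 replicate samples, both at passage 21 and of 4500 cells per reaction, given GnRH at 2 nM in 4 pulses, 1 every 2 h, and harvested 45 min after the last pulse, 6 h and 45 min from the start. With no untreated sample at hand, no groups were compared, and nothing in the labels says whether the replicates were separate cultures. The peak lists held 58519 peaks in replicate 1 and 64984 in replicate 2.

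Hox genes encode homeodomain transcription factors that tell cells where they lie along the axis from head to tail. In each cluster the genes stand in the order in which they are used along the body, so that low paralogue numbers mark the hindbrain and neck and high numbers the trunk, tail and limb ends. Outside their territory the clusters are known to be kept silent by Polycomb complexes, while MLL complexes keep them active inside it. The anterior pituitary forms from ectoderm at the front of the embryo, ahead of the known Hox territory.

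The data showed no peak in any of the 4 Hox clusters. In a window from 20 kb before the first to 20 kb after the last gene of each cluster, 0 summits lay in replicate 1 and 0 in replicate 2, and no peak of either list reached into a window. None of the 39 Hox genes had a promoter peak, defined as a summit within 1 kb of any annotated transcription start site (TSS), in either replicate. Over all protein-coding genes, 32.3% had one in replicate 1, 44.4% in replicate 2 and 30.8% in both. Here and below, a gene counted in both had a promoter peak in each list, but not always the same peak. Counts of 0 given here and below for genes, tiles and motifs inside the windows restate the absence of summits and are not further results. The running peak numbers of both lists had 0 breaks, so that no row of the deposited lists was missing over these regions.

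A list entry needed a minimum of tags, so the absence of a peak means that none was detectable at this depth and calling threshold. The weakest summit held 10 extended tags in replicate 1, over a background of 3.05 tags, and 11 in replicate 2, over 3.54. A site open in few of the cells and a site weakly open in all of them cannot be told apart in such bulk samples. The windows themselves were readable sequence: they held 0 unknown bases, and 98.4% of their positions were single-copy, meaning that the 50 bp around the position occur at 1 place in the genome. On a regular grid over the genome, 85.9% of positions were single-copy. Of the listed summits with a counted copy number, however, only 33.1% in replicate 1 and 38.8% in replicate 2 were single-copy. Most listed peaks thus had summits in repeated sequence, of which the windows held little.

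**Figure D1:**
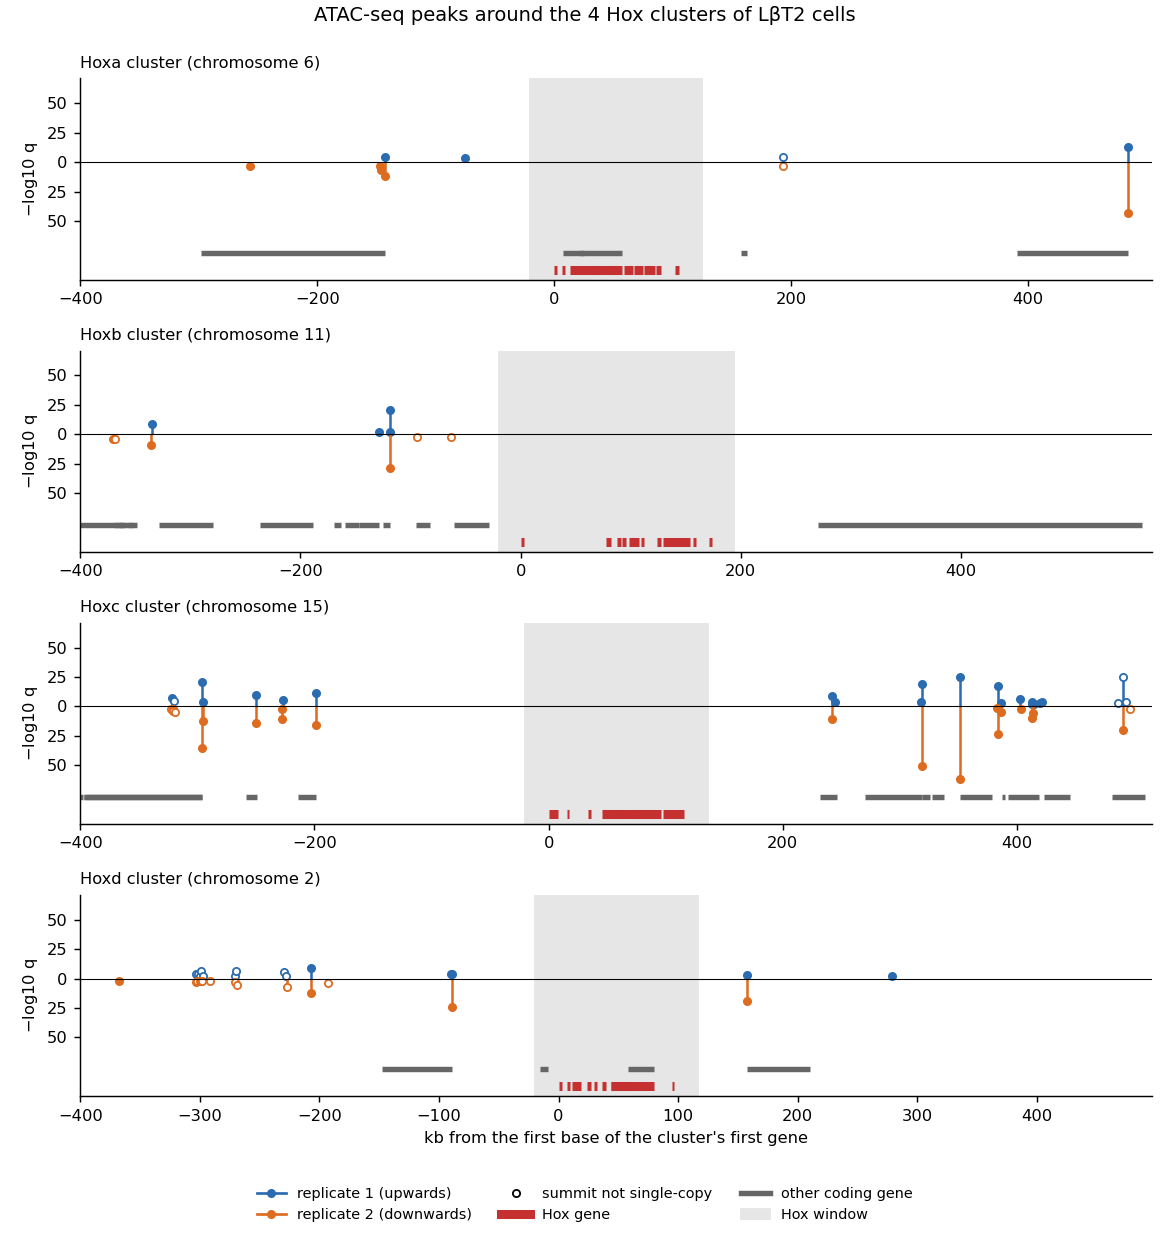
Peaks from 400 kb before to 400 kb after each Hox cluster, as −log10 q at the summit (vertical axis, replicate 1 upwards, replicate 2 downwards) against distance from the first base of the first gene in kb. Hox genes are red bars, other coding genes grey bars, open circles mark summits that are not single-copy, and no line falls in any of the 4 grey windows.

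Promoter sequence is shown for 1 gene of each cluster, to give its content of CG dinucleotides. The sequences are the 250 bases before the RefSeq start (GRCm38.p6), 5′ to 3′ in the direction of the gene, with every CG dinucleotide in capitals. RefSeq promoters were at hand for 22 of the 39 Hox genes. For Hoxa, Hoxb and Hoxd the CpG-rich gene with the most CG dinucleotides was taken. For Hoxc it was the single gene with a RefSeq promoter at hand, Hoxc4, which was not CpG-rich in the measure given below.
Hoxa13: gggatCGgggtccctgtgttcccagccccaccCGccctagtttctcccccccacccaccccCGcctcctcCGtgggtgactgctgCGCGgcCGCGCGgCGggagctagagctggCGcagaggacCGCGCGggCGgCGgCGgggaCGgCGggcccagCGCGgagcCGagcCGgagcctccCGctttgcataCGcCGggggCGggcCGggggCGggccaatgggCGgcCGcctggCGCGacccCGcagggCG
Hoxb8: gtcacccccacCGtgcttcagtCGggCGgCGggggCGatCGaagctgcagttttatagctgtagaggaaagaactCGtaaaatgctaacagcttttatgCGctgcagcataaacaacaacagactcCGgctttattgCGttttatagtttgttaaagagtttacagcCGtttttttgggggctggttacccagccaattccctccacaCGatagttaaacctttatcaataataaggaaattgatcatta
Hoxc4: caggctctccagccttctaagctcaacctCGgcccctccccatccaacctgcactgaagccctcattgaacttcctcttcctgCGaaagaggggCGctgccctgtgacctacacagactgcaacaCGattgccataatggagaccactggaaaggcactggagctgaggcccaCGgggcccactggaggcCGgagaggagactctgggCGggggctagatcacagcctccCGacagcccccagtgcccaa
Hoxd13: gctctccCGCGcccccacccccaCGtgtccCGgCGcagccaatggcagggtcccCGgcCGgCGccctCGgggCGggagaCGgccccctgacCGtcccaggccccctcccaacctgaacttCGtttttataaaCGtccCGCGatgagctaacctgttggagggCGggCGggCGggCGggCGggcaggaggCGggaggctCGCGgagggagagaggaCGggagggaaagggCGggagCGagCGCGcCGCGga
Mtx2: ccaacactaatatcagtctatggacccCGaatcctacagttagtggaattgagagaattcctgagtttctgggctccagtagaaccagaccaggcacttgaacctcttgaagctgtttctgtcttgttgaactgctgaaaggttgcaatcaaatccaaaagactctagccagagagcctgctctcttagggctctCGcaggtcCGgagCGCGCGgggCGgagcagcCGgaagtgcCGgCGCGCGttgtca
These stretches lie at chr6:52260881-52261130 (minus strand), chr11:96281655-96281904 (plus strand), chr15:103034145-103034394 (plus strand), chr2:74667975-74668224 (plus strand) and chr2:74825562-74825811 (plus strand).

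Mtx2, which encodes a protein of the outer mitochondrial membrane, is the first gene with a promoter peak beyond Hoxd1 and is shown for comparison. Its peak had 13 tags in replicate 1 and 34 in replicate 2. Its 250 bases held 12 CG dinucleotides, and Hoxb8, a gene of trunk patterning, also held 12. Hoxa13 and Hoxd13, which pattern the limb ends and the genital and urinary tract, held 35 and 31. Hoxc4, a cervical patterning gene, held 8. Over the 24 promoters of the 22 Hox genes the median was 12.5 CG dinucleotides, from 2 to 35, and over the 20150 promoters of 16522 protein-coding genes it was 10.

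CG content was then measured in the 1 kb around each TSS. A gene was called CpG-rich when the GC content was at least 50% and the CpG ratio, the number of CG dinucleotides over that expected from the C and G content, at least 0.6. Any annotated TSS of a gene could meet this, which favours genes with several, and 23 of the 39 Hox genes had over 1. Of the 39 Hox genes, 29 were CpG-rich (74.4%), against 51.2% of all protein-coding genes. With the TSS at the 5′ end of the gene alone, 24 of the 39 qualified. No share over all genes stands beside that count, so it does not show whether the difference holds with 1 TSS per gene. With a GC content of at least 55% and a ratio of at least 0.75, 15 of the 39 qualified, beside 6829 of the 21938 protein-coding genes. Among CpG-rich genes a promoter peak was found for 50.5% in replicate 1, 70.0% in replicate 2 and 49.0% in both. The count for the 29 CpG-rich Hox genes was 0 in either replicate. Where CpG-rich promoters had a peak, the median was 19 tags in replicate 1 (quartiles 15 and 26) and 27 in replicate 2 (quartiles 20 and 40). Only called peaks enter these medians, so they do not show how easily a promoter without a peak would be detected.

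The share of genes with a promoter peak rose with the CpG ratio among the other coding genes. It was 4.74% in both replicates for ratios under 0.2, 24.0% for 0.4 to 0.6, 47.0% for 0.6 to 0.8 and 50.7% for 0.8 to 1. The Hox genes lay mostly in the upper classes, with 14 genes at 0.6 to 0.8, 14 at 0.8 to 1 and 1 above 1. A further 9 had a ratio of 0.4 to 0.6 and 1 a ratio of 0.2 to 0.4.

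**Figure D2:**
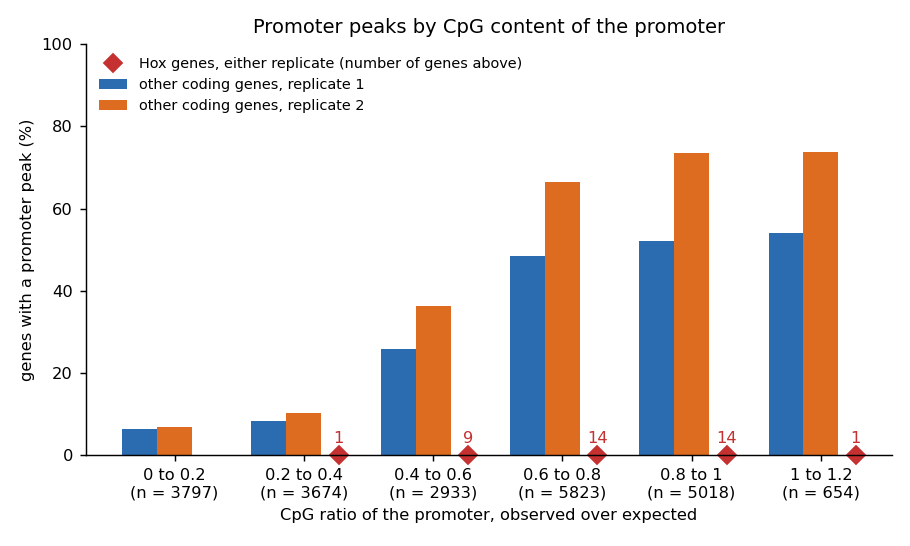
Percent of genes with a promoter peak (vertical axis) by the CpG ratio of the promoter (horizontal axis) for other protein-coding genes in replicate 1 (blue bars) and replicate 2 (orange bars), and for Hox genes (red diamonds, with the number of genes). The bars climb to 54.0% and 73.7% in the highest class, while the Hox genes stand at 0 in each class that holds any. The lowest class holds no Hox gene.

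CpG-rich sequence was also counted without regard to genes. The Hox windows held 66 of the 16210 tiles of 1 kb in the genome that were CpG-rich by this measure, 21 in Hoxa, 15 in Hoxb, 10 in Hoxc and 20 in Hoxd. None of the 66 held a summit, as the windows held none. Over all such tiles, 30.5% held one in replicate 1 and 42.9% in replicate 2. Most of these tiles lay at the TSSs already described, and 12 of the 66 had no TSS of any annotated gene in them or within 1 kb. The 12 held 0 summits, and over the 2794 such tiles of the genome 27.8% and 30.8% held one. At the mean density of the assembled chromosomes, 2.19 peaks per 100 kb in replicate 1 and 2.43 in replicate 2, a stretch as long as the 4 windows together (652 kb) would hold 14.3 and 15.9 peaks. With single-copy summits alone these numbers were 4.72 and 6.17.

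In the Hoxa cluster all 11 genes were CpG-rich. Their CpG ratios ran from 0.63 for Hoxa3, which is needed for the thymus and parathyroid, to 0.996 for Hoxa5, a regulator of lung development. The stretch without a summit of either replicate was 268 kb long around the cluster. On the anterior side of the cluster, the last peak lay 74.9 kb away in replicate 1. It had 14 tags and no counterpart in replicate 2, where the last peak was at the promoter of Skap2, 143 kb away, with 26 tags (95% Poisson interval 17.0 to 38.1) and a counterpart in replicate 1. Skap2 encodes an adaptor protein of blood cells. After Hoxa13, both lists had a peak 88.1 kb away, past the homeobox gene Evx1, with 16 and 15 tags, whose summits were not single-copy in either list.

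The Hoxb cluster had 5 CpG-rich genes of 10, namely Hoxb5 to Hoxb9. Hoxb1 to Hoxb4, which pattern the hindbrain and neck, and Hoxb13, known from the prostate, had ratios from 0.40 to 0.57. The cluster lay in the longest stretch without a summit of the 4, at 646 kb. On the Hoxb13 side the first peak of replicate 1 was at the promoter of Atp5g1, a subunit gene of the mitochondrial ATP synthase, 118 kb away with 34 tags. Replicate 2 had a weak peak of 13 tags at 63.0 kb, but the 50 bp around that summit occur at 84992 places. On the Hoxb1 side the first peak of both lists was 409 kb away at the promoter of Snx11, a gene of endosomal sorting, with 20 and 25 tags.

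The Hoxc cluster had 5 CpG-rich genes of 9, Hoxc8, Hoxc9, Hoxc11, Hoxc12 and Hoxc13. The others, Hoxc4, Hoxc5, Hoxc6 and Hoxc10, had ratios from 0.41 to 0.59. Its stretch without a summit was 441 kb long and ended at the same promoters in both replicates. Calcoco1, which encodes a coactivator and autophagy receptor, stood 199 kb beyond Hoxc13, a gene of hair and nail formation, with 24 and 31 tags. Smug1, which encodes a DNA glycosylase of base excision repair, stood 126 kb beyond Hoxc4 in replicate 1 and 127 kb in replicate 2, with 21 and 25 tags.

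The Hoxd cluster had 8 CpG-rich genes of 9. Hoxd1, Hoxd3, Hoxd4, Hoxd8, Hoxd9, Hoxd10, Hoxd11 and Hoxd13 had ratios from 0.64 for Hoxd10 to just above 1 for Hoxd8, and Hoxd12 had 0.58. Its stretch without a summit was the shortest of the 4, at 247 kb, and again ran from promoter to promoter. Lnpk, which encodes a protein that shapes the endoplasmic reticulum, had its peak 89.2 kb from Hoxd13 in replicate 1 and 89.3 kb in replicate 2, with 14 and 39 tags. Mtx2 bounded the other side, 60.6 kb and 60.7 kb from the end of Hoxd1. The same neighbours thus bounded Hoxc and Hoxd in both lists, while the boundary peaks of Hoxa and Hoxb differed between the lists on 1 side each.

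By paralogue position no group had a peak nearby. The anterior genes (paralogues 1 to 3, 8 genes, 5 of them CpG-rich) had a median distance of 93.6 kb from a TSS to the nearest summit in replicate 1 and 149 kb in replicate 2. The central genes (4 to 8, 15 genes, 11 CpG-rich) had 149.5 and 151 kb. The posterior genes (9 to 13, 16 genes, 13 CpG-rich) had 118 and 115 kb. Genes of a cluster share their nearest summits, so these distances follow from the place of a gene in its cluster and the members are not independent.

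Hoxd1 was the Hox gene closest to a summit, at 62.8 kb in both replicates. Hoxb1, which specifies a segment of the hindbrain, was farthest, at 290 kb in replicate 1 and 234 kb in replicate 2. The 39 genes had a median of 127 kb in replicate 1 and 144 kb in replicate 2, where all protein-coding genes had 11.96 and 4.02 kb. Among CpG-rich genes, 4.01% lay as far from any summit as the nearest Hox gene in both replicates, so such distances were uncommon but not restricted to Hox genes.

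**Figure D3:**
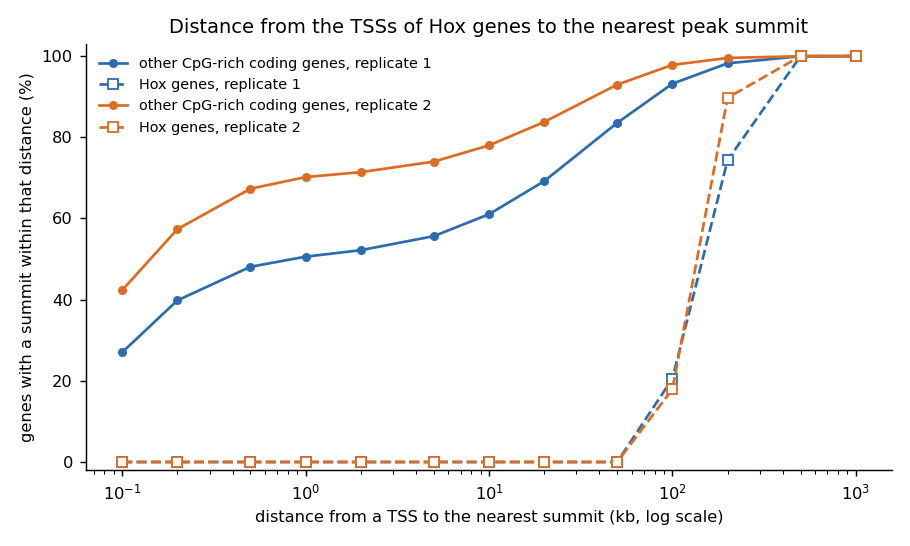
Percent of genes with a summit within a given distance of a TSS (vertical axis) against that distance in kb (horizontal axis, log scale), for other CpG-rich coding genes (filled circles) and Hox genes (open squares) in replicate 1 (blue) and replicate 2 (orange). At 50 kb, 83.6% and 93.0% of the other genes and 0 of the Hox genes had a summit, and at 500 kb all Hox genes had one.

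The regions around the clusters did hold peaks. Of the other CpG-rich genes within 1 Mb of the Hoxc cluster, 16 of 24 had a promoter peak in both replicates, and near Hoxa 5 of 10. Near Hoxd it was 4 of 7 and near Hoxb 8 of 26 (30.8%). Within 5 Mb on each side the share in both replicates was 48.2% for Hoxa, 35.3% for Hoxb, 46.3% for Hoxc and 55.6% for Hoxd, beside 49.0% over the genome. Within 5 Mb of Hoxb the shares of the single lists were 37.9% and 59.5%, the lowest of the 4 regions in each. On the whole chromosomes the share in both lists ran from 41.8% for chromosome 11, which carries Hoxb, to 61.0% for chromosome 2, which carries Hoxd. The part of these differences in the Hox results was not tested.

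The genome was also divided into intervals between neighbouring summits of the joined lists, and each interval was described by the CpG-rich genes in it that had no promoter peak. Of the 2563 intervals with at least 1 such gene, 20 held 5 or more. The Hoxa interval held 14 and ranked first. They were the 11 Hoxa genes, Evx1 and the annotated overlapping genes Gm28308 and 5730596B20Rik. The Hoxd interval held 9, the 8 CpG-rich Hoxd genes and the homeobox gene Evx2, and ranked second. The third held 8 genes of other families. The Hoxb and Hoxc intervals held 5 each, all of them Hox genes, and shared rank 11. Genes lie close together in Hox clusters, which this count does not take into account.

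**Figure D4:**
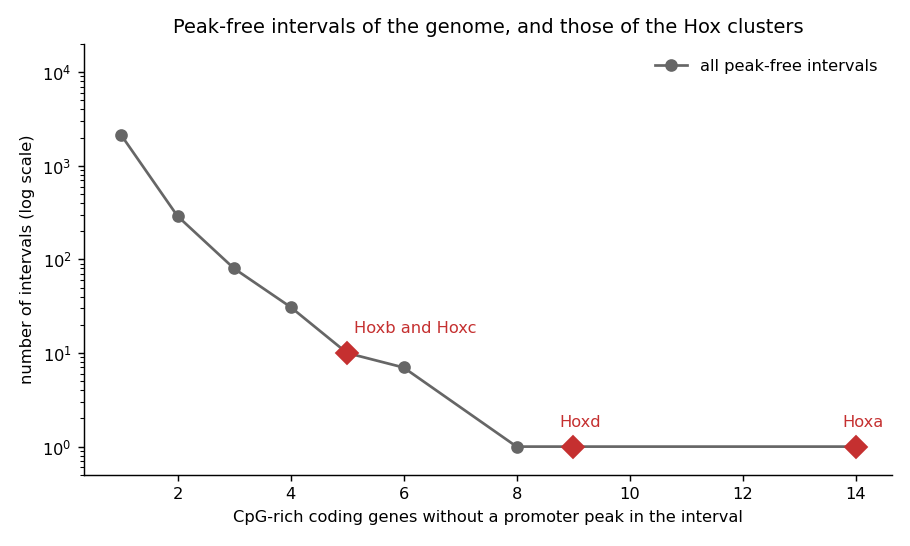
Number of peak-free intervals of the genome (vertical axis, log scale) by the number of CpG-rich coding genes without a promoter peak that they hold (horizontal axis). The red diamonds mark the intervals of the Hox clusters, with 14 genes for Hoxa, 9 for Hoxd and 5 each for Hoxb and Hoxc.

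The clusters also carry noncoding genes. GENCODE placed 20 long noncoding genes in or across the windows, among them Hotairm1 and Hottip in Hoxa and Hotair in Hoxc, of which the latter pair is known for contacts with MLL and Polycomb proteins. A promoter peak was found for 0 of the 20, beside 11.3% of all long noncoding genes in replicate 1 and 15.3% in replicate 2.

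The windows hold the miR-10 and miR-196 families, which target Hox transcripts, and Mir615. Their mature 5p strands, with the miR-615 3p strand, are shown because members of a family in different clusters share a seed. The sequences are from RefSeq (GRCm38.p6), 5′ to 3′, with the seed (bases 2 to 8) in capitals.
miR-10a-5p (Hoxb): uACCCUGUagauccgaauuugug
miR-10b-5p (Hoxd): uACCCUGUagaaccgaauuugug
miR-196a-5p (Hoxb and Hoxc): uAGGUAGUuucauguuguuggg
miR-196b-5p (Hoxa): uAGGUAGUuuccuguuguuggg
miR-615-3p (Hoxc): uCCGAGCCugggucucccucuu
The miR-10 genes share 1 seed and the miR-196 genes another. The nearest summit to Mir10b was 99.7 kb away in both replicates, and that to Mir10a 241 and 186 kb. For Mir196b it was 119 kb in both, for Mir196a-1 189 and 134 kb, for Mir196a-2 190.0 kb in both, and for Mir615 148 kb in both.

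Sequence motifs were counted on both strands as exact letter matches, which describe the sequence and not binding. The SP1 letters GGGCGG occurred 402 times in the windows, 61.7 per 100 kb, against 11.4 per 100 kb over the genome. Of all SP1 matches, 5.44% lay inside a peak in replicate 1 and 8.24% in replicate 2. No peak reached into the Hox windows, so for each motif the count of matches there inside a peak could only be 0. The letters TGATNNAT, as bound by dimers of PBX and HOX proteins, occurred 281 times, 43.1 per 100 kb against 72.8, with 0.707% and 0.800% of all matches in peaks and 0 of those in the windows. The core motif of CTCF, an insulator protein, had 1 match in the windows, in Hoxb. It lay in no peak, and of all 13119 matches 2.93% and 4.76% did. Of the 22 Hox genes with RefSeq promoters, 10 held GGGCGG and 4 held TGATNNAT in at least 1 promoter, beside 47.5% and 7.60% of protein-coding genes counted the same way.

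Hox proteins bind DNA together with homeodomain partners of the TALE class. Of 9 genes for such partners, 7 of them CpG-rich, 4 had a promoter peak in both replicates (44.4%), 4 in replicate 1 and 6 in replicate 2. This share was near the 49.0% of all CpG-rich genes. Among them, Pknox1 had 47 tags in replicate 1 and 47 in replicate 2, Pbx3 had 33 and 47, and Meis1 had 30 and 34. These examples were taken by their high mean rank. Their peaks stood at the 92.5th percentile of −log10 q or above among all peaks of their lists. Pbx2, Meis2 and Meis3 had none in either list.

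Of 26 genes of the Polycomb complexes, which write and read repressive histone marks, 11 had a promoter peak in both replicates, 11 in replicate 1 and 19 in replicate 2. Phf19 had 48 and 64 tags, Cbx8 30 and 27, Eed 21 and 32, and Mtf2 21 and 30. Ezh2, the main methyltransferase, had 14 and 28 tags. The list as a whole stood at 42.3% in both replicates, beside 49.0% of CpG-rich genes. Of 9 genes of the MLL complexes and the opposing demethylases, 5 had one in both (55.6%) and 8 in replicate 2. Over all CpG-rich genes the share in replicate 2 was 70.0%. Kmt2b had 29 and 50 tags, and Kmt2a had 19 tags in replicate 2 alone. 

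Of the 6 retinoid receptor genes, whose ligand retinoic acid is a known inducer of anterior Hox genes, Rarb had a promoter peak in each list, with 16 and 13 tags, but at different start sites of the gene, so that neither peak recurred in the other list. All 6 were CpG-rich. In replicate 1 only 1 of the 6 had a promoter peak, beside 50.5% of all CpG-rich genes. In replicate 2 all 6 had one, from 11 tags for Rxrg to 18 for Rarg, beside 70.0%. For CTCF and cohesin, 4 of 7 genes had a promoter peak in both replicates (57.1%) and 6 in replicate 2. All 7 were CpG-rich, and over all CpG-rich genes the shares were 49.0% and 70.0%. Ctcf itself, which every cell uses, had none in either list, with its nearest summit 43.6 kb and 70.5 kb away. A missing peak in these lists was thus also seen at a gene in general use.

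Other homeobox genes of the Hox-like group had no promoter peak either. Of Evx1, Evx2, Cdx1, Cdx2, Cdx4, Gsx1, Gsx2, Pdx1, Gbx1, Gbx2, Meox1, Meox2 and Mnx1, 9 of the 13 were CpG-rich and 0 had a promoter peak in either replicate. Over all CpG-rich genes the shares were 50.5% and 70.0%. Evx1 and Evx2 stand at the ends of the Hoxa and Hoxd clusters, and the Cdx genes act on Hox genes in the tail end of the embryo. Evx2 lies inside the Hoxd window and Evx1 in the peak-free interval of Hoxa, so their lack of a peak restates the result above. Gsx1, Pdx1 and Cdx2 lie close together on chromosome 5, so the 13 genes are not independent. No test was made between these genes and the Hox genes.

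**Figure D5:**
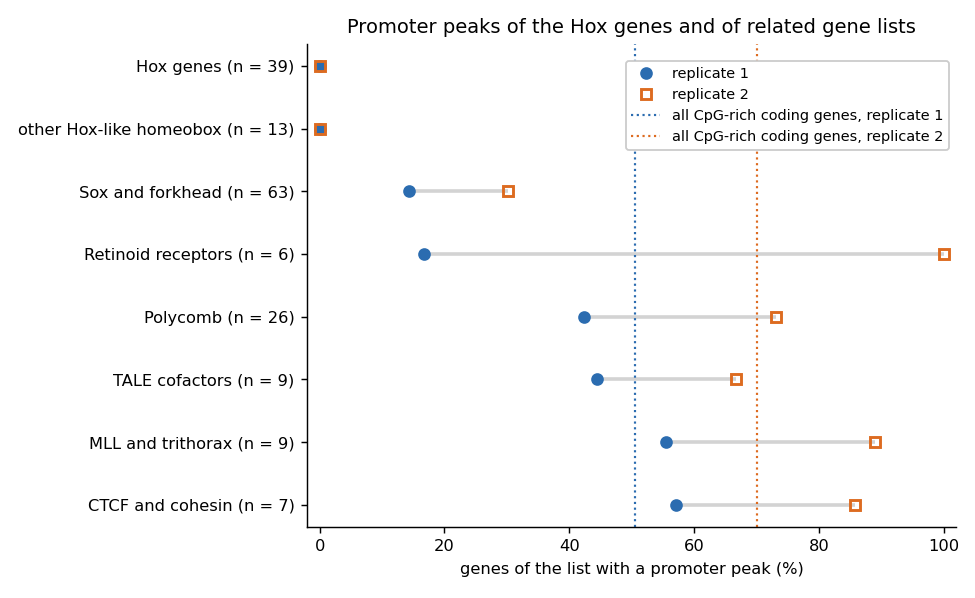
Percent of genes with a promoter peak (horizontal axis) for the 39 Hox genes and for 7 related lists, in replicate 1 (blue circles) and replicate 2 (orange squares). Dotted lines give the shares of all CpG-rich coding genes (50.5% and 70.0%), and the Hox genes and the 13 other Hox-like genes stand at 0 in both replicates.

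The label of the cells was checked against marker genes. Of 9 gonadotrope markers 5 had a promoter peak in both replicates (55.6%, beside 30.8% of all protein-coding genes), among them Lhb, Cga, Gnrhr and Egr1, with 49, 25, 22 and 22 tags in replicate 1 and 70, 50, 33 and 30 in replicate 2. The paper lists Egr1 as an early gene induced by GnRH. Of the 5 CpG-rich markers, 2 had a promoter peak in both replicates, beside 49.0% of all CpG-rich genes. Nr5a1 had one in replicate 2 alone, and Fshb, Pitx1 and Lhx3 had none. Of 6 markers of other pituitary lineages, 0 had a promoter peak. None of the 6 was CpG-rich, and in the classes of CpG ratio under 0.6 the share of genes with a peak in both replicates ran from 4.74% to 24.0%, so this count says little about the label.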

How the data were processed

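Accessibility was measured by ATAC-seq in 2 replicates of LβT2 cells under 1 condition. According to the methods, paired reads were mapped to GRCm38 with bowtie2, duplicates were removed and MACS2 was run on each replicate with the options "-g dm" and 200 bp extension. That preset is the fly genome size, which would enter the background and so the threshold. Whether it was used for the deposited lists could not be told from them. Each deposited peak carries a score, its fold over background (a ratio) and the −log10 of its p and q, as the authors' caller gave them. Tags per summit and the background were recovered from the fold. Recomputed −log10 p values lay within 1.43e-04 of those deposited.

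Peaks were compared with GENCODE vM21 and the GRCm38 sequence with scripts in Python 3.11.15 that used pandas 2.3.3, numpy 2.4.6, numba 0.67.0, scipy 1.17.1 and, for figures, matplotlib 3.10.9. The measures were tested on simulated data in 7 checks. No test between groups was possible with 1 condition, and genes are not replicates, so members are set beside the same count over all genes. Hox genes are named by cluster and other lists by counts with up to 4 examples by mean rank, apart from some genes that are not reported here, and with genes singled out after their values were seen (Ezh2, Kmt2a, Ctcf, the retinoid receptors, the genes at cluster ends). Members and lists were chosen with earlier results of these data known, and the CpG classes, intervals and tiles after seeing the data. Alternatives concerned the q threshold, single-copy summits, promoter width, annotation, window width and each replicate. Intervals cover counting error only.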

Additional observations from a re-analysis of the deposited data

How the results depend on the processing

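The count of 0 Hox genes with a promoter peak was also 0 in the 10 alternatives run: −log10 q of at least 10, single-copy summits, a summit within 500 bp or 2 kb, any part of the peak within 1 kb, the 5′ TSS alone, RefSeq curated transcripts, a peak in either replicate (chosen after seeing the data) and each replicate left out. With the nearest summit 62.8 kb from any Hox TSS, none of these that keep the GENCODE start sites could have given another count, so they say nothing about stability. Peaks in the 4 windows and their density were 0 with −log10 q of at least 10, single-copy summits, no flank and each replicate left out, none of which can add a peak, and with 50 kb flanks. With 100 kb flanks, chosen like those of 50 kb after seeing the data, the count was 5 peaks per replicate and the density 0.168 times that of the chromosomes. The share of protein-coding genes with a promoter peak in both replicates, 30.8%, fell to 10.8% with −log10 q of at least 10 and was 32.3% without replicate 2 and 44.4% without replicate 1. For CpG-rich genes the corresponding values were 17.8%, and 50.5% to 70.0%. The share of window peaks shared between replicates and the share near a Hox TSS could not be computed, since there were no peaks. No paired analysis was possible because there was a single group. Depth and the calling threshold together limit these results: a site with fewer than about 10 tags gave no peak.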

Other observations

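Of 63 Sox and forkhead genes, also developmental transcription factors and 52 of them CpG-rich, 9 had a promoter peak in replicate 1, 19 in replicate 2 and 8 in both, with Sox12 at 47 and 73 tags. The 12.7% with one in both replicates lay below the 30.8% of all protein-coding genes and the 49.0% of CpG-rich genes. The difference of these genes from the 39 Hox genes was not tested.

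The third-ranked interval, with 8 CpG-rich genes that had no promoter peak, is on chromosome 8 and 357 kb long. It holds Snai3, Rnf166, Ctu2, Piezo1, Cdt1, Aprt, Galns, Trappc2l, Pabpn1l, Cbfa2t3 and Acsf3, among them genes of general metabolism and replication.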
